A study of Saccharomyces cerevisiae with 31 samples.

Results

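The large, 60S subunit of the cytosolic ribosome of budding yeast, *Saccharomyces cerevisiae*, is built from ribosomal RNA and the products of 81 annotated genes. These are the genes whose symbol is RPL with a number and, for copies, the letter A or B, and the stalk genes RPP0, RPP1A, RPP1B, RPP2A and RPP2B, out of 6021 annotated protein-coding genes. The choice used names only, not measured values, though earlier results of these data were known when it was made. They form 46 families: 11 are single-copy genes and 35 are A and B pairs, which are paralogs that encode the same or nearly the same protein. Ribosomal protein genes are among the most strongly transcribed genes of growing yeast. The activators Rap1, Fhl1, Ifh1 and Sfp1 keep them on in rich medium, and they are turned down together in stress. Many of them carry introns, which few yeast genes do.

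RNA was sequenced in 4 genotypes, wild type (WT) and the SPT6 mutants spt6-1004, spt6-S8A and spt6-S8E, with 3 libraries each. Spt6 is a histone chaperone that moves with RNA polymerase II. Going by the allele names and the series' interest in casein kinase 2, spt6-S8A puts alanine in place of serines of Spt6 and spt6-S8E puts glutamate there, and spt6-1004 is a mutant allele in wide use. All strains were grown in rich glucose medium at 30 °C from an optical density of 0.2 and were harvested at 1. The labels give no other allele, and they do not say whether replicates are separate cultures, so p-values measure only the spread between these libraries. In bulk RNA, a smaller share of the sequenced RNA and fewer molecules per cell cannot be told apart.

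The deposited data are the authors' 3 tables of genes that differed from WT at an adjusted p under 0.05 by DESeq2's Wald test. A table gives the base mean of a gene over all libraries, its log2 fold change against WT and the standard error (SE), and no value per library, so the 3 libraries of a genotype cannot be shown singly and their depth is unknown. In the following text a gene is called when it has a row in the table of that mutant. A gene without a row has no value. The comparison with spt6-1004 adjusted 5668 genes and that with spt6-S8A 431, which lie above a minimum base mean; for spt6-S8E the number was again 5668.

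In spt6-1004, RNA of most large subunit genes fell. Of the 81 genes, 56 were called lower (69.1%), and the background share called lower among all adjusted genes was 6.62%. None was called higher, 0 of 81, where the background share was 5.63%; how many had an unadjusted p under 0.05 cannot be given, since the authors' deposited table holds called genes alone. The called members had a median log2 fold change of -1.59 in the authors' deposited table, a 3.02-fold decrease, with quartiles of -1.85 and -1.40. All 375 genes called lower had a median of -1.29 there, and the 319 of these that are not large subunit genes had -1.23. The median SE was 0.35 for called members and 0.30 for these 319, so at the median SE members needed a larger change to be called. The medians therefore do not show that members fell more. Of the 56 members, 55 fell at least 2-fold, which the call itself partly sets. At the members' median SE, a change of less than 0.96 in size had no row. Members make up 14.9% of all genes called lower. The base means in the authors' deposited table are averages of whole numbers over 12 libraries, as they are when no size factor for depth divides them. Whether these fold changes were scaled for depth is therefore not known, and a change shared by all genes of a library cannot be told apart from its depth.

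**Figure D1:**
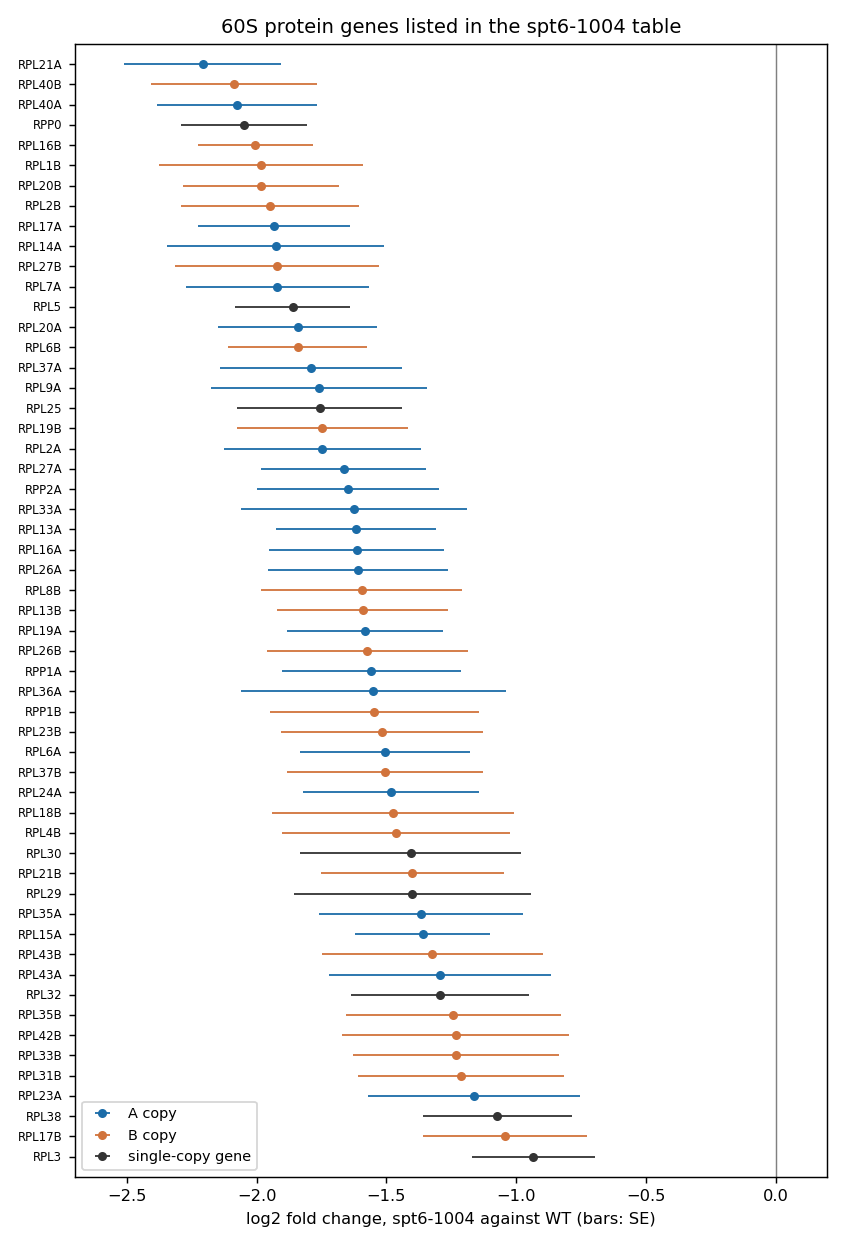
Log2 fold change of spt6-1004 against WT for 55 of the 56 large subunit genes in the authors' deposited table, ordered by size; points are the authors' estimates and bars their SE, coloured by copy (A, B or single-copy). All 55 lie below 0, from -2.21 for RPL21A to -0.93 for RPL3, and bars of neighbours in this order overlap.

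The standard deviation of the 56 log2 fold changes was 0.30, and the median SE of a single member was 0.35. The call itself narrows this spread, since at that SE a change of less than 0.96 in size had no row. RPL21A fell most, by the authors' deposited table, at -2.21 (SE 0.30, DESeq2 adjusted p = 2.47e-11), or 4.62-fold. It lies on chromosome II from 606270 to 607140 (R64). RPL1B at -1.98 (SE 0.39), RPL20B at -1.98 (SE 0.30), RPL2B at -1.95 (SE 0.34) and RPL17A at -1.93 (SE 0.29) were also among the 10 largest decreases in the authors' deposited table. The SE of each spans the gap to its neighbours in this order.

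RPL16B had the smallest adjusted p of all members. It fell by 2.00 (SE 0.22, DESeq2 adjusted p = 2.17e-17) on the log2 scale by the authors' deposited table, where its base mean was 93.5. The gene lies on chromosome XIV from 493956 to 495001 (R64), and its span includes an intron, as its length of 1046 bp is no multiple of 3. RPL6B, at -1.84 (SE 0.27, DESeq2 adjusted p = 4.44e-10) by the authors' deposited table, was among the most significant members too. At the weak end, RPL42B at -1.23 (SE 0.44, DESeq2 adjusted p = 0.0419) and RPL23A at -1.16 (SE 0.41, adjusted p = 0.0381) came closest to missing the threshold by the authors' deposited table. Their base means, 10.5 and 13.3, are in the lower part of the members' range of 4.75 to 118.5, where errors are larger. The Rpl42 protein is known as a site of resistance to cycloheximide, an inhibitor of elongation.

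The stalk is the flexible arm of the subunit that recruits translation factors. RPP0 encodes its trunk, on which dimers of the acidic P1 and P2 proteins sit. In the authors' deposited table RPP0 was at -2.05 (SE 0.24, DESeq2 adjusted p = 3.92e-15), a 4.14-fold decrease; the gene is on chromosome XII from 805887 to 806825 (R64). The P1 genes RPP1A and RPP1B were at -1.56 (SE 0.35) and -1.55 (SE 0.40) and the P2 gene RPP2A at -1.65 (SE 0.35) in the authors' deposited table. RPP2B had no row, so 4 of the 5 stalk genes fell, where 69.1% of all members and 6.62% of all adjusted genes did. RPL12A and RPL12B, whose protein joins RPP0 at the stalk base, had no row either.

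RPL5 and RPL11 proteins enter the subunit together with the 5S rRNA. RPL5, a single-copy gene on chromosome XVI from 303121 to 304014 (R64), had the highest base mean among the called members, 118.5, and stood at -1.86 (SE 0.22, DESeq2 adjusted p = 8.40e-15) by the authors' deposited table. RPL11A and RPL11B were both without a row. RPL3, whose protein reaches into the peptidyl transferase centre, had the smallest change of all called members, -0.93 (SE 0.24, DESeq2 adjusted p = 0.00128), by the authors' deposited table, at a base mean of 96.2. RPL3 and RPL5 are both single-copy genes with small errors, and their changes differ by more than the sum of these errors. RPL3 was picked here for its smallest change, and no test was run on this gap. RPL10 and RPL28, the other single-copy genes near that centre, had no row, and RPL2A at -1.75 (SE 0.38) and RPL2B at -1.95 (SE 0.34) completed this group in the authors' deposited table.

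Around the tunnel through which the new protein leaves, 11 of 14 genes fell (78.6%, beside 69.1% of all members and the background of 6.62%), with a median of -1.57 in the authors' deposited table. RPL25, which encodes a docking site for factors that meet the emerging chain, was at -1.76 (SE 0.32, DESeq2 adjusted p = 1.06e-06) by the authors' deposited table. RPL17, RPL19, RPL26 and RPL35 fell with both copies, and RPL4B and RPL31B with 1 copy each. RPL31A, RPL4A and RPL39 of this group had no row. At the L1 stalk, which moves with the leaving tRNA, RPL1B fell and RPL1A had no row.

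RPL40A and RPL40B encode ubiquitin fused to a ribosomal protein, so these genes supply ubiquitin too. They fell by 2.08 (SE 0.31) and 2.09 (SE 0.32) on the log2 scale, or 4.21-fold and 4.25-fold, in the authors' deposited table. Both have a base mean of 33.8 there. Their values are uncertain, as near-identical copies can share reads, which was not tested. RPS31, the ubiquitin fusion of the small subunit, was at -1.14 (SE 0.25, DESeq2 adjusted p = 0.000175) by the authors' deposited table. UBI4, the polyubiquitin gene that is induced in stress and encodes no ribosomal protein, was called higher, at 1.06 (SE 0.28, adjusted p = 0.00257), by the authors' deposited table. Of the 7 genes in the ubiquitin list these 2 were called, 1 lower and 1 higher, or 14.3% each beside background shares of 6.62% and 5.63%, and 1 gene in so short a list says little about it.

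Of 35 A copies 25 were called lower (71.4%), of 35 B copies 23 (65.7%), and of the 11 single-copy genes 8 (72.7%), each to be read against the background of 6.62%. Called single-copy genes had a median of -1.40 and called copies one of -1.60 in the authors' deposited table, and the sets ran from -2.05 to -0.93 and from -2.21 to -1.04. The 8 single-copy genes are RPL3, RPL5, RPL25, RPL29, RPL30, RPL32, RPL38 and RPP0. Among them RPL30, whose protein in yeast represses the splicing of its own transcript, was at -1.41 (SE 0.43) and RPL38 at -1.07 (SE 0.29) in the authors' deposited table. Genes whose span is no multiple of 3, and so must hold an intron, were called in 22 of 31 cases (71.0%), against 34 of 50 of the rest (68.0%), some of which have introns as well.

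Both copies were called in 18 of the 35 pairs, 1 copy in 12 and neither in 5. Within the 18 full pairs, A had the larger decrease in 9 and B in 9. The absolute difference between copies had a median of 0.23 on the log2 scale, where the median SE of such a difference was 0.51, taking the errors of both copies as independent. In 9 pairs it was under 0.25. RPL17 had the largest difference: RPL17A was at -1.93 (SE 0.29) and RPL17B at -1.04 (SE 0.31) in the authors' deposited table. A minus B was -0.89, with a 95% interval of -1.73 to -0.05, the only interval of the 18 that left out 0. The intervals were not widened for reading 18 of them, so this alone does not show that the RPL17 copies differ. RPL21A minus RPL21B was -0.81 (95% interval -1.72 to 0.10), since RPL21B was at -1.40 (SE 0.35) in the authors' deposited table. With errors correlated by 0.5 between copies the intervals of RPL17 and RPL21 both left out 0, and no other did.

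The smallest differences belonged to RPL40, at 0.01 (95% interval -0.86 to 0.88), RPP1, at -0.01 (95% interval -1.05 to 1.03), and RPL13, at -0.03 (95% interval -0.91 to 0.86). RPL13A was at -1.62 (SE 0.31) and RPL13B at -1.59 (SE 0.33) in the authors' deposited table. Intervals of this width leave room for unequal changes of up to about 1 on the log2 scale in either direction, so they do not show that the copies changed equally. Whether other copies shared reads was not tested either.

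**Figure D2:**
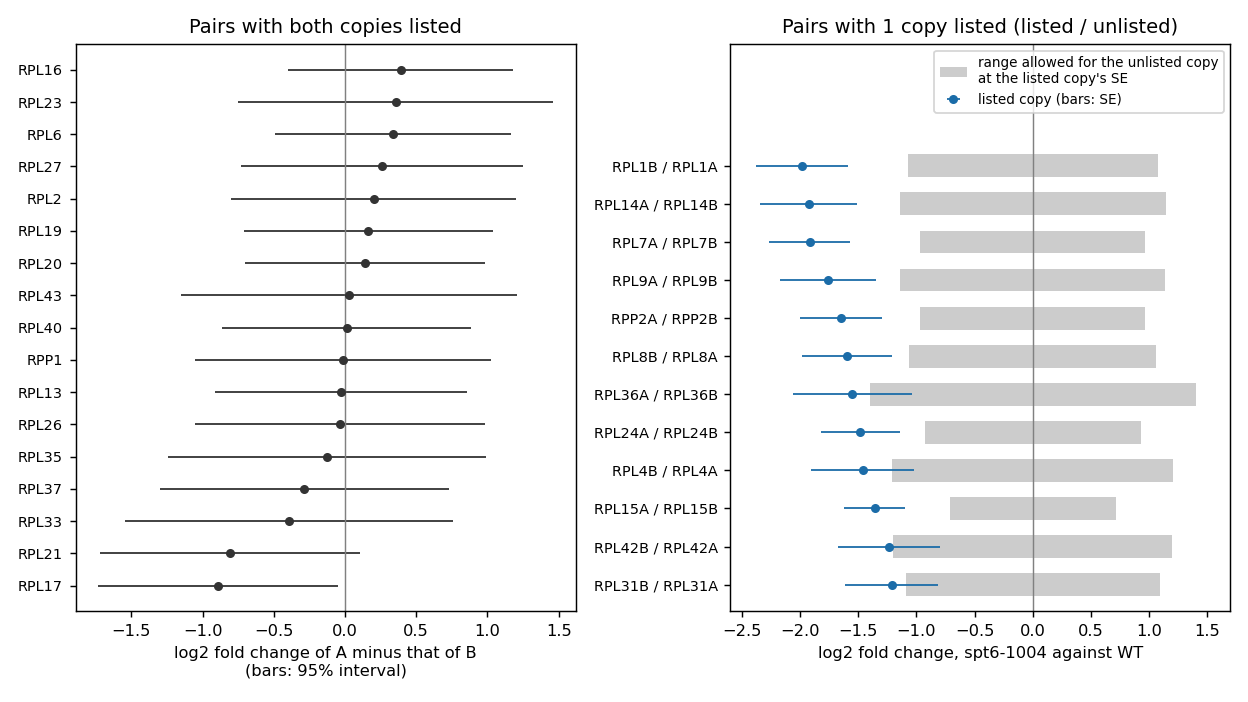
Left, the log2 fold change (spt6-1004 against WT) of the A copy minus that of the B copy in 17 of the 18 pairs with both copies called, with 95% intervals; right, the called copy of the 12 other pairs (points, bars SE) beside the range that having no row allows for its partner, had it the same SE (grey). Among the pairs drawn, only the interval of RPL17 leaves out 0, and the called copies lie between -1.98 and -1.21. The intervals are not widened for their number, and the grey ranges bound the partner's estimate only.

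Of the 12 pairs with 1 called copy, 7 had the A copy and 5 the B copy in the table. Called copies ran from -1.98 for RPL1B to -1.21 for RPL31B in the authors' deposited table. RPL14A was at -1.93 (SE 0.42), RPL7A at -1.92 (SE 0.35), RPL9A at -1.76 (SE 0.42) and RPL8B at -1.59 (SE 0.39) in the authors' deposited table, and their partners RPL14B, RPL7B, RPL9B and RPL8A had no row. RPL15A was at -1.36 (SE 0.26), RPL24A at -1.48 (SE 0.34), RPL36A at -1.55 (SE 0.51) and RPL4B at -1.46 (SE 0.44) there in the authors' deposited table. A missing row does not mean no change. If the gene was adjusted, its unadjusted p was above 0.00613, so that its Wald statistic was no larger than 2.74 in size. With the SE of its called partner, that bounds the estimated log2 fold change, though not the change itself. It allows up to 0.71 for RPL15B, the tightest case, and up to 1.40 for RPL36B, the loosest. For RPL42A it allows up to 1.20, against -1.23 for RPL42B itself in the authors' deposited table, so the missing row shows no difference between these copies.

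No copy was called in 8 families: RPL10, RPL11, RPL12, RPL22, RPL28, RPL34, RPL39 and RPL41. The other 38 families had at least 1 called copy. RPL41A and RPL41B have the shortest genes of the set, with 78 bp each. Together with the partners above, these make 25 members without a row. Their base means and changes are unknown, and so is whether each entered the adjustment. At the smallest, the median and the largest SE of called members, having no row would allow an estimate of up to 0.61, 0.96 and 1.40.

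**Figure D3:**
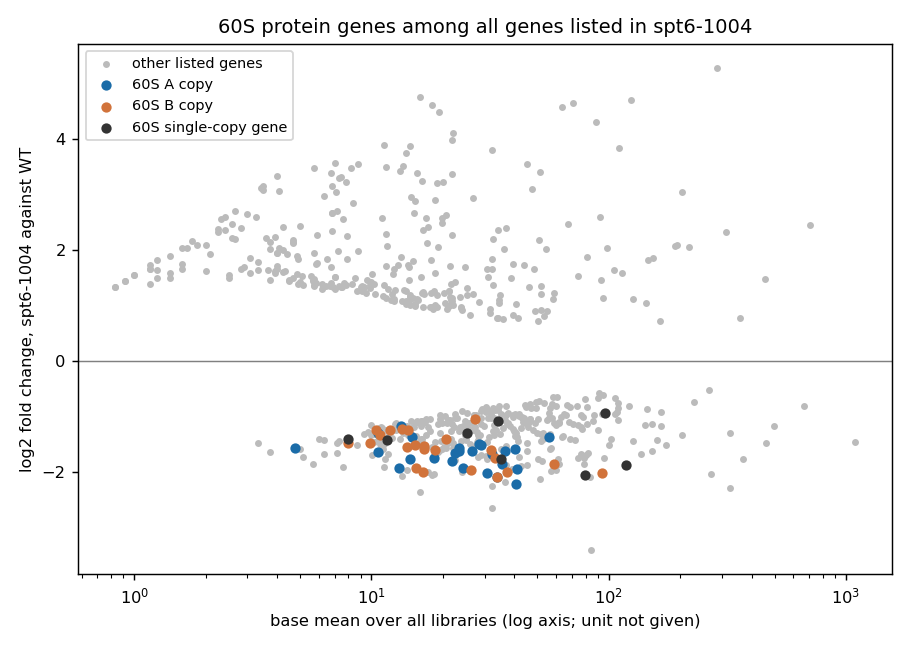
Log2 fold change of spt6-1004 against WT (y axis) over the base mean (x axis, log scale, unit not given) of every gene in the authors' deposited table, with other genes in grey and the 56 large subunit genes coloured by copy. The large subunit genes form a band below 0 at base means of 4.75 to 118.5.

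Size and base mean went together among called members. The 17 members with a base mean under 15 had a median of -1.40, the 19 from 15 to under 30 one of -1.59, the 16 from 30 to under 60 one of -1.80 and the 4 from 60 up one of -1.93 in the authors' deposited table. To be called, a member at the median SE of the lowest class had to change by 1.16, and one in the highest class by 0.63. The top class holds RPL5, RPL16B, RPP0 and RPL3, and RPL3 at -0.93 lies outside the range of the others. The base mean includes the spt6-1004 libraries themselves, and shrinkage of fold changes at low values was not tested.

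Genes that work with the large subunit were compared by list. Of the 56 small subunit genes, 46 were called lower (82.1%) and 0 higher, with a median of -1.52 in the authors' deposited table, close to the -1.59 of the large subunit. RPS0B at -2.07 (SE 0.25), RPS1B at -1.75 (SE 0.25), RPS20 at -1.73 (SE 0.25) and RPS0A at -1.74 (SE 0.25) had the smallest adjusted p in the authors' deposited table. Of the 34 mitochondrial large subunit genes, named MRPL, which make the ribosome inside mitochondria, none was called in either direction. The background shares were 6.62% lower and 5.63% higher, and in a list this short 0 is near them. The authors' deposited table gives no p for these genes. Of the 70 factors that assemble and export the 60S particle, 3 were called lower and 0 higher (4.29%, under the 6.62% background): REA1 at -1.12 (SE 0.21), NOG1 at -1.28 (SE 0.28) and URB1 at -1.02 (SE 0.27) in the authors' deposited table. REA1 encodes a large ATPase that strips factors from the maturing particle, and NOG1 a GTPase that rides on it.

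Of 26 regulators of ribosomal protein genes, among them RAP1, FHL1, IFH1, SFP1, HMO1 and the casein kinase 2 genes, 0 were called lower and 1 higher (3.85%), which is near the background of 6.62% lower and 5.63% higher and is no result about the list. The called gene was SPT7, a subunit of the coactivator SAGA, at 0.83 (SE 0.30, DESeq2 adjusted p = 0.0459) by the authors' deposited table. Among 13 chaperones of new ribosomal or nascent proteins, 3 were called lower (23.1%, background 6.62%): ZUO1 at -1.19 (SE 0.24), EGD2 at -1.49 (SE 0.34) and EGD1 at -1.43 (SE 0.36) in the authors' deposited table. These act on chains at the ribosome. No chaperone dedicated to a single large subunit protein, such as RRB1, SQT1 or ACL4, was called. Among so few genes 0 is near the 6.62% background, so it shows no contrast within the list. Of 11 elongation factor genes, whose proteins include the GTPases that the stalk recruits, 5 were called lower (45.5%, background 6.62%) and 1 higher (9.09%, background 5.63%). YEF3 was at -1.29 (SE 0.16), TEF4 at -1.84 (SE 0.24), EFB1 at -1.80 (SE 0.26), EFT2 at -2.24 (SE 0.33) and TEF1 at -0.77 (SE 0.26) in the authors' deposited table. HEF3, a paralog of YEF3, was the higher one, at 1.85 (SE 0.50) with 4.92 as its base mean, by the authors' deposited table. EFT2 and TEF1 have near-identical copies and their values are uncertain.

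**Figure D4:**
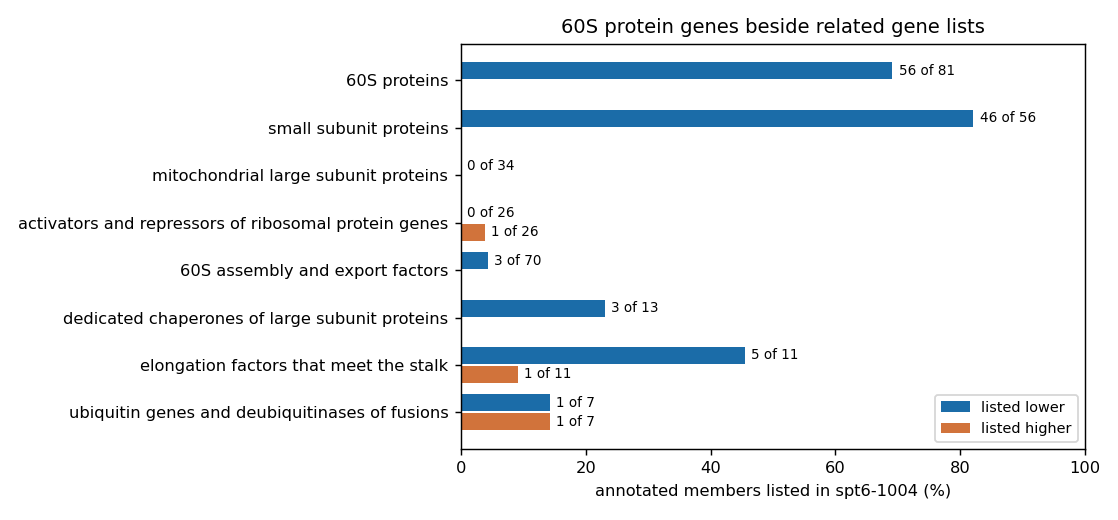
Share of annotated genes called lower (blue) and higher (orange) in spt6-1004 for the large subunit genes and 7 related lists, with counts beside the bars. Large and small subunit genes stand at 69.1% and 82.1% called lower, mitochondrial large subunit genes at 0, where the background share, not drawn, was 6.62%.

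In spt6-S8A, 2 large subunit genes were called, both lower, where the background shares of the 431 adjusted genes were 2.09% lower and 3.25% higher. How many large subunit genes were among these 431 is unknown. The count of 2 therefore has no known share to set beside the background, and is no result about the whole set. RPL16B was at -0.64 (SE 0.20, DESeq2 adjusted p = 0.0348) and RPL40A at -0.82 (SE 0.27, adjusted p = 0.0491) by the authors' deposited table, decreases of 1.56-fold and 1.76-fold. In spt6-1004 the same genes stood at -2.00 (SE 0.22) and -2.08 (SE 0.31) in the authors' deposited table. The comparisons share the WT libraries. With their errors taken as independent, spt6-S8A minus spt6-1004 was 1.36 for RPL16B (95% interval 0.78 to 1.94) and 1.26 for RPL40A (95% interval 0.45 to 2.06), so both genes fell less in spt6-S8A. Both calls ended at an adjusted p under 0.01, and neither fold change reached 1 on the log2 scale. RPL40B, with the same base mean as RPL40A, had no row in the spt6-S8A table.

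The lowest base mean in the spt6-S8A table was 32.6, and 17 of the 56 members called in spt6-1004 reach it, so these were adjusted in spt6-S8A as well. The 15 of them without a row, including RPL5, RPP0, RPL3, RPL21A and RPL40B, had Wald statistics no larger than 2.99 in size. RPL40A was just past this limit at -3.02 in the authors' deposited table, so its call and the missing row of RPL40B do not show a difference between the copies. For the 23 genes in both tables the SE in spt6-S8A was 0.87 to 1.09 times that in spt6-1004. If the same SE held, the 15 genes had log2 estimates in spt6-S8A of at most 0.66 (RPL5) to 0.98 (RPL19B) in size. Each limit is smaller than the gene's own estimate in spt6-1004. It bounds the estimate and not the change itself, which can lie further out by the error. For RPL3 and RPL38 the limits, 0.71 and 0.86, lie near the spt6-1004 estimates of -0.93 (SE 0.24) and -1.07 (SE 0.29). For these genes a smaller change in spt6-S8A is therefore not shown. Whether the 39 other called members, with lower base means, and the 25 without a row were adjusted in spt6-S8A is unknown, and no limit can be set for them.

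**Figure D5:**
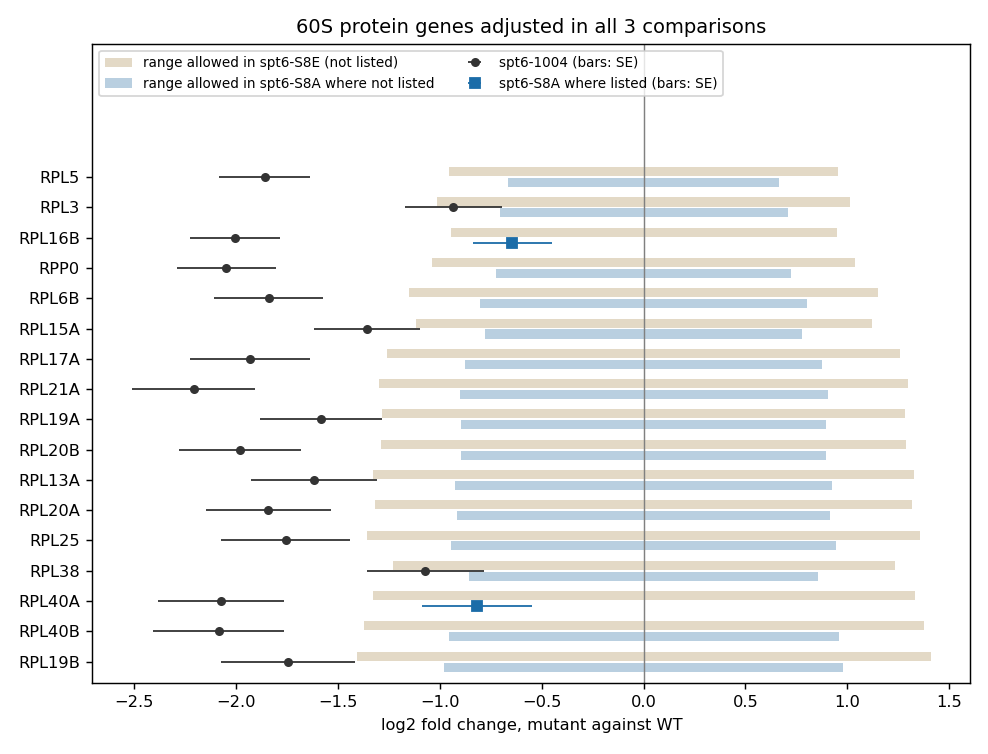
The 17 large subunit genes adjusted in all 3 comparisons, with the log2 fold change in spt6-1004 (black points, bars SE), the value in spt6-S8A where called (blue squares, bars SE), and the ranges allowed in spt6-S8A (blue bars) and spt6-S8E (tan bars) where there is no row, at the SE of spt6-1004. The spt6-1004 values of RPL3 and RPL38 lie inside the range allowed in spt6-S8E. All 17 exceed the range allowed in spt6-S8A or, for RPL16B and RPL40A, the called value there. The ranges bound estimates, not the changes themselves.

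In spt6-S8E no large subunit gene was called, 0 of 81, where the background share was 0.0176%, the single gene SER3. The threshold was strict: a gene without a row had a Wald statistic of up to 4.29 in size. At the SE of spt6-1004, the estimate that this allows was from 0.95 for RPL16B to 2.19 for RPL36A on the log2 scale. For 31 of the 56 members called in spt6-1004 the estimate there was larger than this limit. An estimate of that size would have been called in spt6-S8E at the same SE. The other 25, RPL3 and RPL38 included, could have changed as much in spt6-S8E as in spt6-1004 without being called. Both calls of spt6-S8A, at Wald statistics of -3.30 for RPL16B and -3.02 for RPL40A in the authors' deposited table, would have missed this limit too.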

How the data were processed

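RNA of 12 libraries was compared by the submitters; 19 chromatin immunoprecipitation and input samples were not analysed here. The submitters' processing notes name build sacCer3 and the tools DESeq2 1.14.1, Salmon 0.8.1, STAR 2.5.2b, SAMtools 1.3.1, cutadapt 1.10 and bedtools 2.26, without their roles. Per the file headers, the deposited values are a base mean, which is a score of unknown unit, a log2 fold change with its SE, a Wald statistic, which is a score, an unadjusted p-value and its adjusted form. Base means times 12 were whole numbers in 694 of 694 rows for spt6-1004 (tolerance 1e-06), and the 23 genes shared with spt6-S8A had equal base means. No size factor shows in these base means, and no label or header says how depth was scaled.

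Genes were named from RefSeq's table of assembly R64 (sacCer3), which matched 689 of 694 identifiers. How many genes were adjusted was worked out backwards from the Benjamini-Hochberg formula, a step checked on simulated data. It returned the authors' deposited adjusted p in 694, 23 and 1 rows. Limits for genes without a row follow from that formula. No new test was run; intervals use normal quantiles and the deposited SE (Python 3.11.15, scipy 1.17.1). Members, roles and gene lists were chosen with earlier results of these data known. Members were named without a rule on size, except 1 called member that is counted but not reported singly here; of other lists, those with the smallest adjusted p were. Introns were read from gene length alone, and protein identity and promoter motifs were not analysed here. Alternatives changed the p threshold, the size of change, the base mean minimum, the members counted and the correlation of errors.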

Additional observations from a re-analysis of the deposited data

How the results depend on the processing

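The count of 56 large subunit genes called lower in spt6-1004 was 43 at an adjusted p under 0.01, 55 at a change of at least 1 on the log2 scale, 52 at base means of at least 10, 50 without the RPP and RPL40 genes, 54 without RPL40A and RPL40B, and 38 with each family counted once. At base means of at least 25, a setting chosen after seeing the data along with the removal of RPL40 alone, it was 26, as fewer genes are counted. All these settings can only lower the count. The background share of 6.62% belongs to the original setting, and its value at the others is not given here. The count called higher and that in spt6-S8E were 0, and the 4 settings run on them, which can only remove genes, could not raise them. The 2 calls in spt6-S8A became 0 at an adjusted p under 0.01, 0 at a change of at least 1, and 1 without the RPP and RPL40 genes. Adjusting them over the 5668 genes of spt6-1004 gave no value, since it needs the p of genes without a row. The median stayed between -1.66 and -1.59 in the 4 settings run on it. The 1 pair whose interval left out 0 became 2 with errors correlated by 0.5. No paired analysis was possible because the tables hold no value per library; for the same reason other scalings and leaving out replicates were not run. Leaving out pairs with identical proteins was not run either, since no protein sequence was used here. Depth is unknown.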

Other observations

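In 9 places a large subunit gene and a gene of either cytosolic subunit were direct neighbours among protein-coding genes (R64), and in 5 of these the genes are divergent, with their starts facing each other. Both neighbours were called lower in spt6-1004 in 8 of the 9, where 69.1% of all large subunit and 82.1% of all small subunit genes were called lower, so the count shows nothing particular to neighbours. On chromosome VII, RPL24A at -1.48 and RPL30 at -1.41 in the authors' deposited table start 1156 bp apart and are transcribed away from each other. On chromosome IV, 3 ribosomal protein genes follow one another, RPS16B, RPL13A and RPP1A. RPL13A was at -1.62 and RPP1A at -1.56 in the authors' deposited table. On chromosome XIII the other copies, RPL13B and RPS16A, lie side by side again. The remaining place is that of RPS22A and RPL39 on chromosome X, where RPL39 had no row.

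In 14 of the 17 full pairs with unequal base means, the copy with the higher base mean had the larger decrease in the authors' deposited table. RPL17 and RPL21 are examples with A as the higher copy, and RPL16 and RPL6 with B: RPL6B, at a base mean of 58.9, was at -1.84 (SE 0.27) and RPL6A, at 29.1, at -1.51 (SE 0.33) in the authors' deposited table. The 95% interval of each single difference includes 0 except for RPL17, and no test was run on the count. Shrinkage of fold changes at low values would make the decrease of the copy with the lower base mean look smaller. It was not tested, so the count describes the deposited estimates and does not show that the copy with more RNA fell more.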
